A study of Rattus norvegicus with 6 samples.

Results

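Oxidative phosphorylation genes are described here in the renal cortex of rats. They were chosen by symbol: all genes starting with Ndufa, Ndufb, Ndufc, Ndufs, Ndufv, Sdha, Sdhb, Sdhc, Sdhd, Uqcr, Cox4i, Cox5, Cox6, Cox7, Cox8 or Atp5, together with Cyc1 and Cycs. The RefSeq table holds 236 such symbols, of which 111 are pseudogenes and 23 are like-copies of a subunit gene. A probe on the array matched 86 of the 236, and 85 could be tested, out of 31582 genes or sequences tested in all. The 2 probes of Cox8c were not well above background on all 3 arrays of either group. The 85 comprised 31 subunits of complex I, 4 of complex II, 8 of complex III, 15 of complex IV and 14 of complex V (the ATP synthase), with Cycs (cytochrome c), 8 assembly factors and 4 others. Those 4 were Atp5if1, Cox7a2l, Cox6c-ps1 and Ndufa10l1. No probe matched the remaining protein-coding members, among them Cyc1, Cox7a1, Ndufa4l2, Ndufa3, Ndufa8, Ndufa13, Ndufb1, Ndufc1, Ndufs6, Atp5mc3 and Atp5mf, which were not analysed here.

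The samples came from 6 male Sprague-Dawley rats of the Crl:CD(SD) stock, bought at 5 weeks of age, with 1 one-colour Agilent array for each animal. The 3 control rats were given corn oil, the vehicle, for 4 weeks, and 3 rats were dosed for the same 4 weeks with 1000 mg/kg/day of BBMP. BBMP stands for 2,2-bis(bromomethyl)-1,3-propanediol, a diol that carries bromine. The comparison asks how BBMP changed the expression of these genes. Each value is the log2 of the processed signal minus the 75th percentile of its array. Such values are comparable between arrays for 1 gene, and not between genes, whose probes differ. A gene is called higher or lower in the BBMP group at an adjusted p under 0.05 in limma, a linear model fitted over all genes tested.

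Oxidative phosphorylation takes place in the inner mitochondrial membrane. Complexes I and II pass electrons from NADH and succinate to coenzyme Q, complex III passes them to cytochrome c, and complex IV passes them to oxygen, while complex V makes ATP from the proton gradient that this builds. Proximal tubule cells, which fill most of the renal cortex, are rich in mitochondria and depend on this ATP for reabsorption. Most subunits are encoded in the nucleus, and the few encoded in mitochondrial DNA could not be matched to a probe by name and were not analysed here.

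All 18 markers of the proximal tubule, the main cell type of the labelled tissue, were tested, with 1 called higher and 0 lower by limma. Their summed signal lay between 11.85 and 11.94 (log2) on control arrays and between 11.82 and 11.86 on BBMP arrays. Of the markers of other renal cells, 1 of 6 for the thick ascending limb, 1 of 4 for the distal convoluted tubule and 2 of 7 for principal cells were called lower, and 2 of 6 for podocytes and 1 of 6 for endothelial cells higher. None was called by limma among 6 intercalated cell, 7 leukocyte and 4 erythroid markers, where 2, 2 and 1 had an unadjusted p under 0.05. The part of these cells in the results below was not tested. The arrays of the groups differed: from 67.2% to 68.6% of probes were well above background on control arrays and from 70.5% to 72.7% on BBMP arrays. The 75th percentile of the processed signal was 943 to 950 on control and 1244 to 1259 on BBMP arrays, and 0 spots were saturated on each control array against 3 to 5 on each BBMP array. The part of these differences in the results was not tested. All control arrays were on slide 1 and all BBMP arrays on slide 2, so treatment and slide cannot be told apart. All 85 members were well above background on all 6 arrays, and no spot that represents them was saturated. When all genes tested were split into 4 equal bins by mean signal, 79 of the 85 fell in the brightest bin. In bulk tissue, fewer cells of a type and less RNA per cell cannot be told apart.

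Of the 85 members, 7 were called higher and 5 lower in the BBMP group, which is 14.1% of them, against 17.9% of all genes tested. Over all genes, 10.2% were called higher and 7.68% lower. With trend and robust moderation of the variances, another limma setting, 25.9% of members were called, against 21.2% of all genes. Without a filter on dim probes the shares were 10.5% and 9.72%. The median difference of the members was -0.029 on the log2 scale, against 0.049 for all genes tested and -0.0029 for all genes in the brightest bin. The groups did not overlap in 46 members, which is 54.1%, against 43.6% of all genes. A difference above 0 was found in 33 members, or 38.8%, against 56.4% of all genes. The shares without overlap and above 0 were not computed for the brightest bin alone. Among the members called, Cox8b rose 1.84-fold and the others changed between 1.19-fold and 1.45-fold.

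The median difference was -0.025 for complex I, -0.071 for complex II, -0.023 for complex III, -0.024 for complex IV and -0.036 for complex V, but with normexp, another background correction, it was 0.089 for complex III, 0.015 for complex IV and 0.045 for complex V. Calls were made in complex I (3 higher and 1 lower of 31), complex III (1 higher and 2 lower of 8) and complex IV (3 higher and 1 lower of 15). Among the 8 assembly factors 1 fell. No member was called among the 4 subunits of complex II, where 0 had an unadjusted p under 0.05, or the 14 of complex V, where 2 positive and 1 negative difference did. Of the 73 members that were not called, 69 had a 95% interval that lay within a 1.5-fold change in either direction. Over these 73, the interval bounds farthest from 0 were 0.73 on the log2 scale, for Uqcrq, and -0.70, for Cycs.

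**Figure D1:**
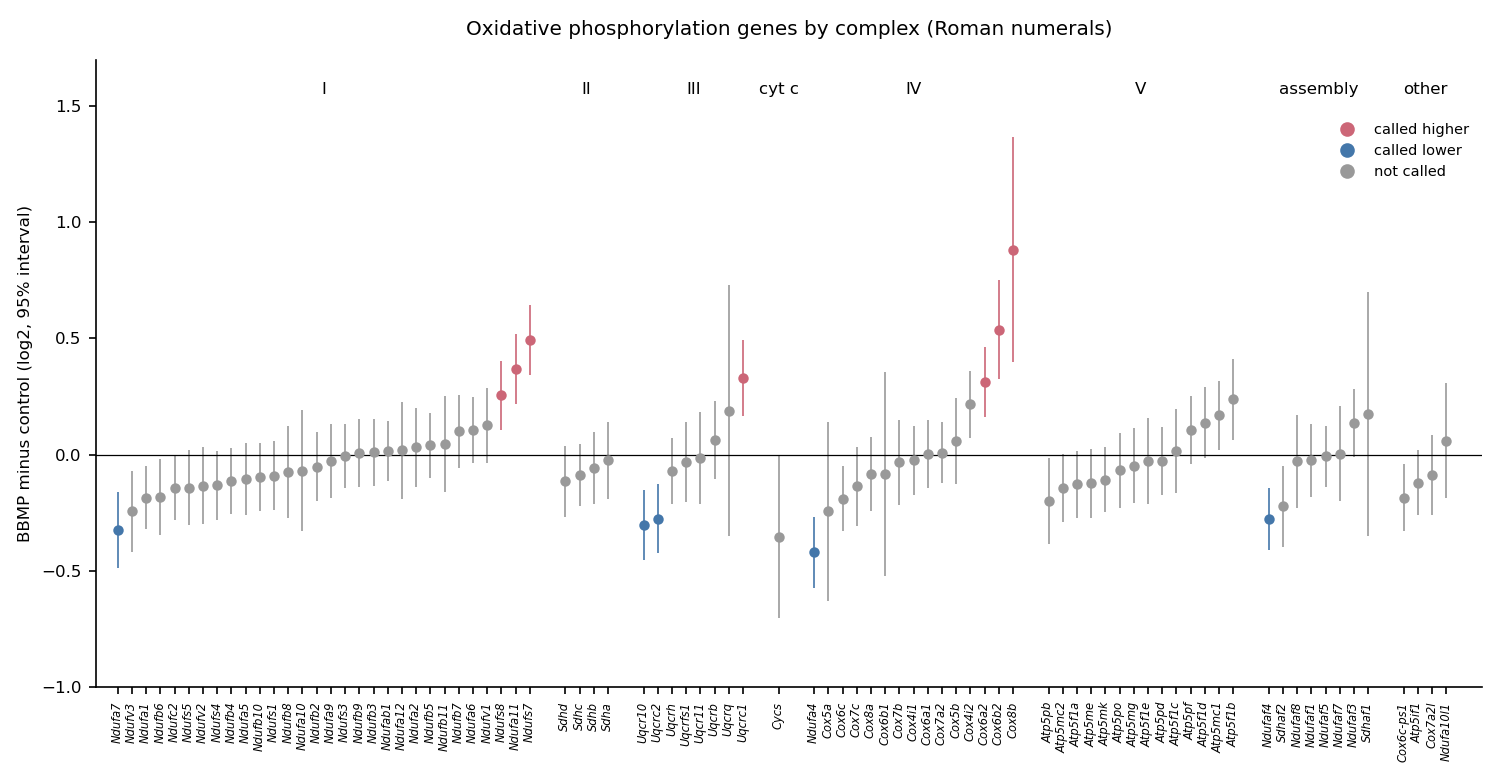
Difference between groups (BBMP minus control, log2) for 84 of the 85 members on the vertical axis, ordered within each complex along the horizontal axis, with points for the estimate and lines for the 95% interval. The 7 members called higher and 5 called lower lie in complexes I, III and IV and among the assembly factors, while most members sit close to 0, and Cox8b is highest at 0.88.

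These calls rested on all 6 arrays. With limma, leaving out control replicate 1, control replicate 2 or BBMP replicate 1 left 1 member called (1.18%). Of all genes, 5.79%, 4.87% and 3.09% were called in these 3 fits. Leaving out BBMP replicate 3 left 2 members (2.35%, against 5.16% of all genes). Leaving out control replicate 3 left 7 members (8.24%, against 12.7% of all genes). Without BBMP replicate 2 there were 0, with 20 at an unadjusted p under 0.05, and 3 of all 31582 genes were called. Position on the slide also differed between groups, since control replicates 1 and 2 were in slide row 2 and the other 4 arrays in row 1. With slide row as a block, which compares the BBMP arrays with control replicate 3, limma called 0 members and 0 of all genes, with 14 members at an unadjusted p under 0.05. Row 1 alone also gave 0 calls, with 9 members at an unadjusted p under 0.05. The 12 differences kept their sign in both, which was fixed in advance and adds no support. Both fits compare the BBMP arrays with control replicate 3, and the groups overlapped in none of the 12.

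Complex I, the NADH dehydrogenase, takes electrons from NADH through a flavin and a chain of iron-sulfur clusters. Ndufs7, which carries the last cluster before coenzyme Q, had values of 5.74, 5.83 and 5.83 on the control arrays and 6.24, 6.33 and 6.32 on the BBMP arrays. The groups did not overlap, and Ndufs7 rose by 0.50 ± 0.06 on the log2 scale, which is 1.41-fold (SE, n = 3 each; limma adjusted p = 0.0125). Its other probe was also called higher, at 0.73 ± 0.13 (SE). Ndufs7 remained called without each of the arrays in turn except BBMP replicate 2.

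Ndufs8, which holds a pair of the iron-sulfur clusters before that step, read 3.62, 3.64 and 3.74 in control samples and 3.93, 3.94 and 3.89 in BBMP samples. All BBMP values lay above all control values, at a difference of 0.26 ± 0.06 (SE; limma adjusted p = 0.0402), and the other probe of Ndufs8 was called too, at 0.28. With median scaling Ndufs8 was at 0.18 and was not called, nor was it without a filter on dim probes (adjusted p = 0.0593). Ndufa11, an accessory subunit of the membrane arm, rose by 0.37 ± 0.06 (SE; limma adjusted p = 0.0192), from 3.50, 3.47 and 3.52 in control samples to 3.85, 3.94 and 3.81. Ndufa7, an accessory subunit of the arm that reaches into the matrix, was the 1 member of complex I that fell. It read 0.43, 0.50 and 0.38 in control and 0.11, 0.18 and 0.05 in BBMP samples, a difference of -0.32 ± 0.07 (SE; limma adjusted p = 0.0280). With normexp background correction Ndufa7 was at -0.21 and narrowly missed the threshold (adjusted p = 0.0503). Neither Ndufa11 nor Ndufa7 had another tested probe.

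Among other catalytic subunits of complex I, Ndufv1, which binds NADH and the flavin, did not pass, at 0.13 ± 0.07 (SE). Its other probe was called higher, at 0.28 ± 0.06 (SE; adjusted p = 0.0279 in limma on single probes), and with normexp Ndufv1 was called at 0.23. Ndufs1, which holds more iron-sulfur clusters than any other subunit, was at -0.090 ± 0.060 (SE), with a 95% interval within 1.5-fold. The other probe of Ndufs1 was at 0.042. Ndufv3, at -0.24, and Ndufa1, at -0.18, were the lowest of the complex I members that were not called, with groups that did not overlap in either gene. The 3 other probes of Ndufv3 were at -0.25, -0.16 and 0.23, none of them called. In the last of these the groups did not overlap either. Ndufv3 and Ndufa1 were chosen after their values were seen.

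The 10 Ndufb subunits, all in the membrane arm, held no call and ran from -0.18 for Ndufb6 to 0.10 for Ndufb7, with 5 above 0 and 5 below, and the groups overlapped in all but 4. The 7 Ndufs subunits, which include most of the iron-sulfur proteins, ran from -0.14 for Ndufs5 to 0.50 for Ndufs7, and the groups overlapped in 1 of them. Over all genes, the groups did not overlap in 43.6%. The 2 other probes of Ndufs5 were at 0.088 and 0.0018. The 1 Ndufc subunit tested, Ndufc2, was at -0.14.

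The 8 assembly factors build complexes I and II and are not part of the finished enzymes. Ndufaf4, which acts early in complex I assembly, read 1.63, 1.69 and 1.64 in control samples and 1.35, 1.38 and 1.40 in BBMP samples. It fell by 0.28 on the log2 scale (SE 0.05; limma adjusted p = 0.0266), and its 3 other probes were also negative, though not called. With the mean of its 4 probes Ndufaf4 was at -0.20 and not called. Sdhaf2, which attaches the flavin to Sdha, was at -0.22 and Ndufaf3 at 0.14, and neither was called, although the groups did not overlap. Sdhaf2 was called with normexp, median scaling and trend and robust moderation, its 2 other probes were at 0.051 and 0.0065, and with the mean of its probes it was at -0.055. Sdhaf1 had a wide spread, from 3.67 to 4.26 in control and from 3.74 to 4.27 in BBMP samples.

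Complex II, succinate dehydrogenase, is also an enzyme of the tricarboxylic acid (TCA) cycle. Its 4 subunits had small negative differences, of which those of Sdha and Sdhc were above 0 with normexp, at 0.022 and 0.024, and those of Sdha and Sdhb with the mean of their probes, at 0.027 and 0.0041. Sdha, the flavoprotein that oxidises succinate, was at -0.024 ± 0.067 (SE), with control values of 6.98, 6.90 and 7.03 and BBMP values of 6.90, 7.02 and 6.92. The iron-sulfur subunit Sdhb was at -0.055 and the membrane anchors Sdhc and Sdhd were at -0.087 and -0.11. The groups overlapped in Sdha and Sdhb but not in the anchors. Their 95% intervals ran from -0.27 to 0.14 at most. With normexp Sdhd passed the threshold (adjusted p = 0.0494).

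In complex III, the cytochrome bc1 complex, the core proteins Uqcrc1 and Uqcrc2, which form its matrix-facing part together, differed in direction. Uqcrc1 read 5.07, 5.08 and 5.21 in control and 5.48, 5.47 and 5.40 in BBMP samples, a difference of 0.33 ± 0.07 (SE; limma adjusted p = 0.0278). Uqcrc2 read 5.28, 5.30 and 5.35 in control and 5.09, 4.98 and 5.03 in BBMP samples, at -0.28 ± 0.06 (SE; limma adjusted p = 0.0328). The groups overlapped in neither gene. The other probe of Uqcrc1 was called higher as well, at 0.42, and Uqcrc2 had 1 tested probe. With median scaling Uqcrc1 was at 0.25 and missed the threshold (adjusted p = 0.0542), and without a filter on dim probes so did Uqcrc2 (adjusted p = 0.0542).

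The promoters of this pair are shown because the genes encode partner subunits and were called in opposite directions. The sequences are the 250 bases before the start of each gene, 5′ to 3′ on its own strand, from RefSeq on GRCr8. Uqcrc1 is at chr8:118467973-118468222, plus strand, and Uqcrc2 at chr1:184598990-184599239, plus strand. Capitals mark matches, on either strand, to 5 motifs. These were GCGCATGC for NRF1, a part of its longer site that was chosen after a longer form had been searched, CCGGAAG for ETS factors such as GABPA, AAGATGGC for YY1, TATAAA for the TATA box and GGGCGG for SP1.
Uqcrc1: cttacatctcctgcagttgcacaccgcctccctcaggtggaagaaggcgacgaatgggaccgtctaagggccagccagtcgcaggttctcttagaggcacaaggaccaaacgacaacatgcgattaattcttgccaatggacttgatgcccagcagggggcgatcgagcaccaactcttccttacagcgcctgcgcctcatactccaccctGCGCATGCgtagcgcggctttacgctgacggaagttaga
Uqcrc2: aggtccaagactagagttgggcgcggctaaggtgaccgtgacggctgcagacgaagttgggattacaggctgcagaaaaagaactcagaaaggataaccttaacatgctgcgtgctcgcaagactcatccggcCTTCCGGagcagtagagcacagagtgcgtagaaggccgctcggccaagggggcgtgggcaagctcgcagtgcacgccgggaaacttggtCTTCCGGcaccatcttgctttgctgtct
Uqcrc2 held the ETS letters at 2 places in this stretch, starting 117 and 28 bases before the gene start. Uqcrc1 held the NRF1 letters 39 bases before the start and the YY1 letters in the 50 bases after it, which are not printed.

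Uqcr10, a small subunit of complex III, was also called lower. It read 8.20, 8.21 and 8.30 in control samples and 7.97, 7.91 and 7.92 in BBMP samples, without overlap, and fell by 0.30 on the log2 scale (SE 0.06; limma adjusted p = 0.0271). Uqcrfs1, the Rieske iron-sulfur protein, was at -0.032 ± 0.070 (SE), with overlapping groups. Uqcrq varied most, from -0.43 to -0.02 in control and from -0.39 to 0.36 in BBMP samples. Cycs, the carrier between complexes III and IV, read 7.323, 6.993 and 7.048 in control and 6.572, 6.995 and 6.737 in BBMP samples. These groups overlapped, and its difference of -0.35 ± 0.14 (SE) was not called (limma adjusted p = 0.134). The 4 other probes of Cycs were at -0.32, -0.22, -0.11 and -0.16, none of them called.

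In complex IV, cytochrome c oxidase, several subunits exist in more than 1 isoform. One is found in most tissues (Cox4i1, Cox6a1, Cox6b1, Cox8a), and the partner is known from particular tissues: Cox4i2 from lung, Cox6a2 and Cox8b from heart and skeletal muscle, and Cox6b2 from testis. The 3 members called higher were all of the second kind. Cox8b read -1.46, -1.57 and -1.88 in control samples and -0.39, -1.04 and -0.83 in BBMP samples, a rise of 0.88 ± 0.20 on the log2 scale (SE; limma adjusted p = 0.0344). Every BBMP value exceeded every control value, with BBMP replicate 1 highest. Its other probe was also called, at 0.82. Without a filter on dim probes Cox8b missed the threshold (adjusted p = 0.0523).

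Cox6b2 read 3.45, 3.46 and 3.41 in control samples and 4.06, 4.06 and 3.81 in BBMP samples. It rose by 0.54 ± 0.09 (SE; limma adjusted p = 0.0181), and its other probe was called as well, at 0.63. Cox6a2 read -1.44, -1.51 and -1.47 in control samples and -1.13, -1.23 and -1.12 in BBMP samples, at 0.31 ± 0.06 (SE; limma adjusted p = 0.0265). Its 2 other probes were positive but not called, and with normexp Cox6a2 was at 0.13 and with the mean of its probes at 0.21, neither of them called. Cox4i2 stayed just above the threshold, at 0.22 ± 0.06 (SE; limma adjusted p = 0.0553), with groups that did not overlap, and passed under 3 alternatives. Cox8b and Cox6a2 were dim, in a signal bin where the median difference of all genes was 0.059.

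Of the common partners none was called: Cox4i1 was at -0.024 ± 0.061, Cox6a1 at 0.0040 ± 0.059 and Cox8a at -0.084 ± 0.065 (SE). Cox6b1 was at -0.081 ± 0.18 (SE), with BBMP replicate 1 at 5.01 and the other 5 arrays from 5.45 to 5.68. Within arrays, the value of the restricted isoform minus that of its common partner was greater in BBMP samples by 0.24 ± 0.04 for Cox4i2, 0.31 ± 0.06 for Cox6a2, 0.62 ± 0.25 for Cox6b2 and 0.97 ± 0.26 for Cox8b (SE). The groups overlapped in none of these 4 pairs. Without BBMP replicate 1 the value for Cox6b2 was 0.38. Each gave p = 0.10 in a two-sided exact permutation test, also after adjustment over the 4 pairs, and this is the smallest p that 3 arrays against 3 can give. The pairs use the same values as the calls above, so this test could add no support to those calls.

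**Figure D2:**
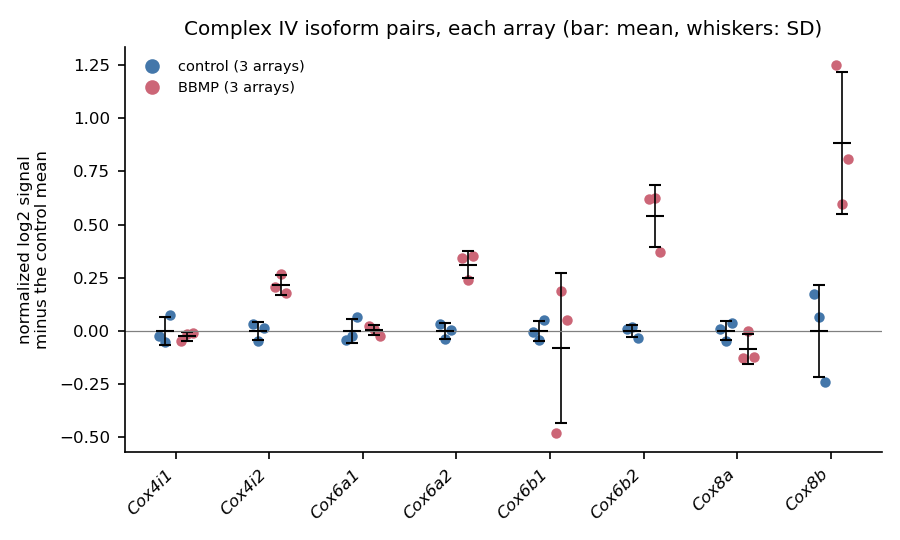
Normalized log2 signal minus the control mean (vertical axis) on each array for 4 pairs of complex IV isoforms (horizontal axis), blue points for the 3 control arrays and red for the 3 BBMP arrays, with bars at the mean and whiskers of 1 SD. Cox8b, Cox6b2, Cox6a2 and Cox4i2 lie above their control values on all BBMP arrays, while Cox4i1, Cox6a1, Cox6b1 and Cox8a overlap with theirs.

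Markers of other tissues were read beside these isoforms. Of 9 striated muscle markers tested, a list added after these results were seen, 1 was called higher and 0 lower, and their summed log2 signal ran from 2.26 to 2.52 on control and from 2.46 to 2.51 on BBMP arrays. Of 4 adipocyte markers tested, 0 were called by limma and 0 had an unadjusted p under 0.05, and their sum ran from -0.12 to 0.69 on control and from 0.45 to 1.16 on BBMP arrays. Of 5 adrenal gland markers, 2 were called higher and 0 lower, and their sum ran from 1.43 to 1.47 on control and from 1.77 to 1.84 on BBMP arrays, without overlap. The part of these markers in the isoform results was not tested.

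The promoters of Cox8a and Cox8b are shown as the pair with the largest difference between isoforms, again from RefSeq on GRCr8 and with the same motifs in capitals. Cox8a is at chr1:213833624-213833873, minus strand, and Cox8b at chr1:205408274-205408523, minus strand.
Cox8a: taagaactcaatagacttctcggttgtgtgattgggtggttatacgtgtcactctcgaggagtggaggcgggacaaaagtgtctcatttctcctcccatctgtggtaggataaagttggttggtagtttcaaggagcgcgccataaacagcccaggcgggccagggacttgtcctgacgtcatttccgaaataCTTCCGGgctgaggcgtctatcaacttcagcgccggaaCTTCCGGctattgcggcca
Cox8b: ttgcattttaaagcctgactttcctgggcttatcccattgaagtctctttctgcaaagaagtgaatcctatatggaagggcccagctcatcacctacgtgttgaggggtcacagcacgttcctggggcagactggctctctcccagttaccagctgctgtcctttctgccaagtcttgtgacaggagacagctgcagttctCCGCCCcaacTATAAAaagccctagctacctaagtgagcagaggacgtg
Cox8a held the ETS letters at 2 places, 57 and 19 bases before the start, and no TATA letters. Cox8b held TATAAA starting 39 bases before the start and a match to the SP1 letters 49 bases before it.

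Promoter windows of 300 bases, 250 before and 50 after the start, were found for 75 of the 85 members. The ETS letters were in 24 of these (32%), against 9.22% of 27457 windows in the table and 11.2% of those of protein-coding genes. The YY1 letters were in 13 (17.3%), against 3.44% of all windows and 3.92% of protein-coding ones, and the NRF1 letters in 11 (14.7%), against 2.66% and 3.22%. SP1 letters were in 32 (42.7%), against 34.9% of all windows but 43.1% of protein-coding ones, and TATAAA in 6 (8%), against 14.3% and 13.1%. GABPA, NRF1 and YY1 are known as regulators of respiratory genes. Among the 7 members called higher 1 held the ETS letters, and so did 1 of the 5 called lower and 22 of the 63 that were not called.

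Ndufa4, first counted with complex I and now known as a subunit of complex IV, had the lowest difference of the 85 members. It read 7.13, 7.10 and 7.13 in control samples and 6.69, 6.78 and 6.64 in BBMP samples, a difference of -0.42 ± 0.06, or 1.34-fold lower (SE, n = 3 each; limma adjusted p = 0.0158). The groups were well apart, and Ndufa4 had 1 tested probe. Cox6c, a small subunit, was at -0.19 and did not pass, and the groups did not overlap. Cox5a and Cox5b, which contact the catalytic core, were at -0.24 ± 0.16 and 0.059 ± 0.076 (SE). Both were within the spread of the arrays. Cox7a2 was at 0.0087, and Cox7a2l, which links complexes III and IV into supercomplexes, at -0.085.

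**Figure D3:**
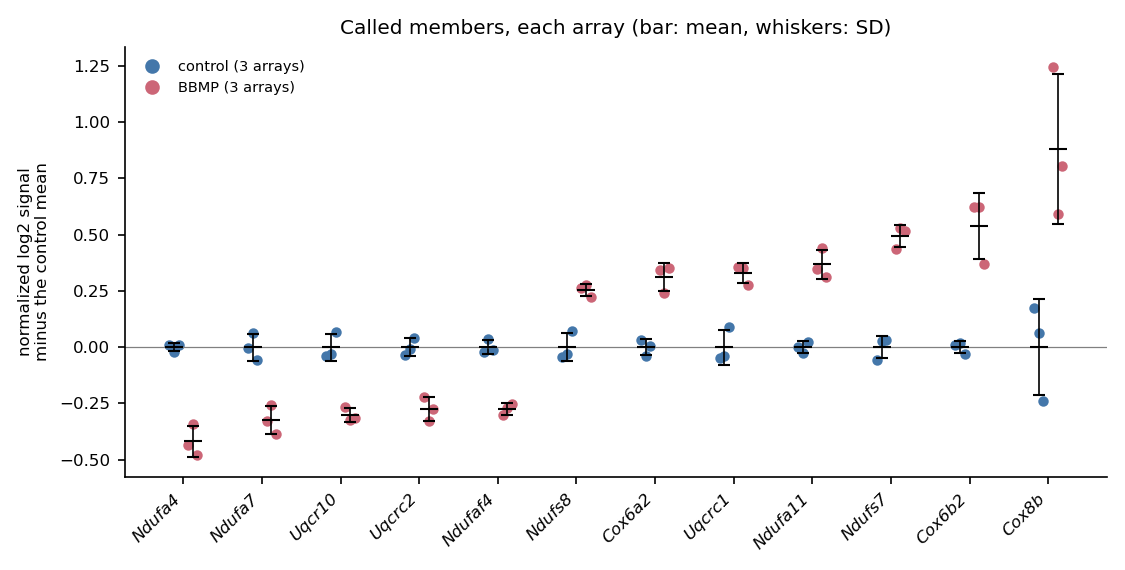
Normalized log2 signal minus the control mean (vertical axis) on each array for the 12 members called (horizontal axis), blue points for 3 control arrays and red for 3 BBMP arrays, with bars at the mean and whiskers of 1 SD. The 5 on the left lie below and the 7 on the right above their control values on every BBMP array, with the widest spread in Cox8b.

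In complex V, Atp5f1b, the catalytic beta subunit, read 6.01, 5.98 and 6.16 in control samples and 6.30, 6.32 and 6.24 in BBMP samples. The groups did not overlap, at a difference of 0.24 ± 0.07 (SE), and it did not pass (limma adjusted p = 0.0693). Of the alternatives, only trend and robust moderation of the variances called it (adjusted p = 0.0282). Atp5f1a, the alpha subunit that alternates with it in the catalytic head, was at -0.13 ± 0.06 (SE), with its other probe at 0.089. Atp5pb, of the stalk that holds the head still, was at -0.20, and Atp5mc1, of the rotating ring in the membrane, at 0.17. Atp5if1, which blocks the enzyme from running in reverse, was at -0.12 ± 0.06 (SE). The 5 Atp5f1 subunits of the catalytic head and shaft ran from -0.13 to 0.24, the 5 Atp5m subunits in the membrane from -0.14 for Atp5mc2 to 0.17, though another probe of Atp5mc2 was at 0.16, and the 4 Atp5p subunits of the peripheral stalk from -0.20 to 0.11 for Atp5pf. None of these was called, and the 95% intervals of all 14 subunits lay within 1.5-fold.

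Several probes were available for 45 members. In 27 of these all probes had the same sign, and in 18 at least 1 had the opposite sign. No other probe was called in the opposite direction. Of the 7 called members with several probes, 7 had all probes on the same side, and in 5 another probe was called as well. Over all 45, another probe was called in 7. These include Ndufv1 and Ndufs4, which were not called themselves. The other probe of Ndufv1 was called higher and that of Ndufs4 lower, at -0.26 (adjusted p = 0.0444 in limma on single probes).

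**Figure D4:**
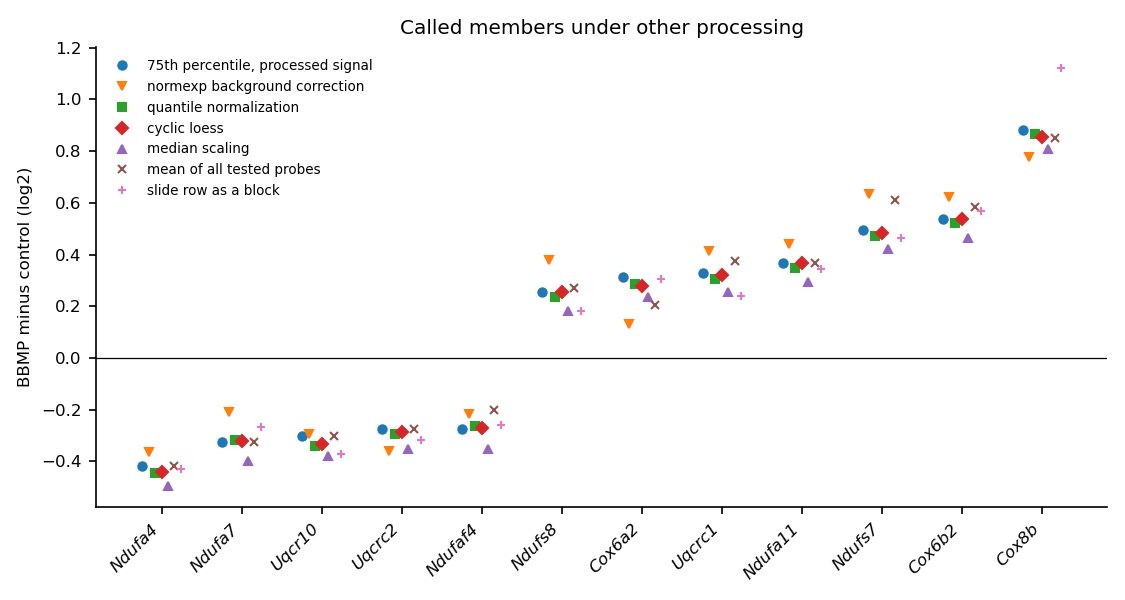
Difference between groups (BBMP minus control, log2, vertical axis) for the 12 members called (horizontal axis) under the main processing and 6 alternatives, 1 symbol for each. All points keep their sign, with normexp pulling Cox6a2 from 0.31 to 0.13 and slide row as a block moving Cox8b from 0.88 to 1.12. Slide row as a block could not change a sign, since the groups overlapped in none of the 12.

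The balance of calls varied with the processing: 58.3% of the members called were higher here, against 33.3% with median scaling (5 higher, 10 lower), 46.7% with normexp (7 higher, 8 lower) and 45.5% with trend and robust moderation of the variances (10 higher, 12 lower). Over all genes the balance of calls varied too, from 3232 higher and 2427 lower in the main processing. Median scaling called 2102 of all genes higher and 3749 lower, while normexp called 2918 higher and 5109 lower. Under trend and robust moderation, 3640 of all genes were higher and 3048 lower. Normexp moved the median difference of all genes from 0.049 to -0.062. Relative to all genes, the members' median was lower by 0.078 in the main processing (-0.029 against 0.049), and of the alternatives only normexp put it above them (0.0087 against -0.062). In the brightest bin, the median in the main processing was -0.032 for the 79 members there, against -0.0029 for all genes.

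Other genes around the respiratory chain came from lists that were chosen with earlier results of these data known. Of 25 genes of mitochondrial DNA expression and biogenesis, 1 rose and 6 fell, against 10.2% and 7.68% of all genes, with a median of -0.0041. Counted by unadjusted p under 0.05 in limma, 6 were higher and 8 lower, against 6793 and 4771 of all 31582 genes. With no filter on dim probes 0 rose and 3 fell. Tfb2m, a factor that starts mitochondrial transcription, fell by 0.44 on the log2 scale, from 1.497, 1.524 and 1.624 in control samples to 1.026, 1.213 and 1.089 (limma adjusted p = 0.0201). Mterf1, a transcription termination factor of mitochondrial DNA, fell by 0.37 (limma adjusted p = 0.0174), from 2.89, 2.79 and 2.88 to 2.48, 2.51 and 2.47. In both the groups were apart. Polrmt, the mitochondrial RNA polymerase, was the 1 that rose, at 0.32 (limma adjusted p = 0.0316), and it was named after its value was seen. With median scaling Polrmt was at 0.25 and not called. Tfam, which packages mitochondrial DNA, was at -0.099 and Ppargc1a, a coactivator of mitochondrial biogenesis, at 0.29, and neither was called. Leaving out each array in turn, limma called at most 2 of the 25, without control replicate 3.

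For each of the 4 lists below, the shares of all genes were 7.68% called lower and 10.2% called higher. Of 17 genes of coenzyme Q synthesis and electron entry, 2 fell and 0 rose. These were Coq10b, a coenzyme Q binding protein, at -0.57 (limma adjusted p = 0.0324), and Etfa, a subunit of the flavoprotein that carries electrons from fatty acid oxidation, at -0.32 (adjusted p = 0.0263). With normexp 3 of the list fell and 2 rose. With slide row as a block Coq10b was at -0.33 and not called. Of 33 assembly factors outside the symbol rule, Dmac1, a complex I assembly factor, fell by 0.30 and 0 rose, against 2 higher and 2 lower with normexp. Of 17 genes of the TCA cycle, Suclg2, a subunit of succinyl-CoA ligase, fell by 0.26, and of 13 genes of ATP, phosphate and ADP exchange, Vdac3, a channel of the outer membrane, fell by 0.23, and 0 rose in either list. With trend and robust moderation, 1 rose and 2 fell in the TCA cycle, and 1 rose and 3 fell in exchange. That setting called 21.2% of all genes in either direction. Counted by unadjusted p under 0.05, 4 genes of coenzyme Q and electron entry, 0 of the assembly factors, 2 of the TCA cycle and 1 of exchange were higher. Suclg2, Vdac3 and Coq10b were not called with no filter on dim probes, nor Vdac3 with the mean of its probes, and Dmac1, Etfa, Suclg2 and Vdac3 were not called when any 1 array was left out. The medians of these 4 lists lay between -0.068 and -0.00070 on the log2 scale, and with normexp the median of the exchange genes was 0.065.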

How the data were processed

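Renal cortex RNA of 3 control and 3 BBMP rats was labelled with Cy3, per the labels' protocols, and read with Agilent Feature Extraction 10.7.1.1, per the file headers (10.7 per the submitters' processing notes). Each deposited file gives linear spot intensity, already background-subtracted in the processed signal, and a score of 0 or 1 for each flag, per the file headers. The deposited table of the series holds 1 ratio per probe and array. Its columns matched scanner files of other samples of the same group, so replicate numbers are uncertain.

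Of 61657 probes, 84 ERCC spike-in probes and 10 with an outlier flag were left out. Processed signals were put on a log2 scale, centred on each array's 75th percentile, and compared for 42657 probes well above background on all 3 arrays of a group, with the brightest probe for each gene. Probes were named by RefSeq accession (GRCr8). The fit used limma 3.58.1 in R 4.3.3, two-sided, without covariates, with Benjamini-Hochberg adjustment over 31582 genes. It was also run on simulated data with independent noise for each gene. That simulation held no slide or row effect, so it cannot show how such effects bear on the calls. The number of arrays limits the precision. Called members, members fixed by role and the 3 lowest p-values of a complex with few calls are named, and up to 2 called genes of each list. Ndufv3, Ndufa1, Ndufs4, Sdhaf1, Uqcrq, Cox6b1, Cox6c, Polrmt, Tfam, Ppargc1a and the ends of family ranges were added after their values were seen. Members and lists were chosen with earlier results of these data known. Alternatives covered background correction, normalization, the deposited ratio, the dim filter, probe choice, blocks, moderation and leaving out arrays. One member is not reported here by name. Slide row and striated muscle markers were added after seeing the data.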

Additional observations from a re-analysis of the deposited data

How the results depend on the processing

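No difference of a called member changed sign under any alternative, but several of these could not change a sign. Moderation and the replicate block leave each difference as it is. Slide row and leaving out arrays could not reverse it, since the groups of the called members did not overlap. With the replicate block limma called 0 members higher and 0 lower, with 8 and 7 at an unadjusted p under 0.05, and 0 of all 31582 genes, but no label ties same-numbered rats, and their arrays did not deviate together (r from -0.12 to -0.068; -0.12 to 0.12 over all 9 combinations), so they were not treated as paired. The deposited table's numbers are shifted alike in both groups and pair the same arrays. With slide row as a block, and with row 1 alone, 0 were called higher and 0 lower, and the medians were -0.084 for all members, -0.072 for complex I, -0.090 for complex III, -0.099 for complex V and -0.061 for the assembly factors. With normexp 8 were called lower, and the medians were 0.089 for complex III and 0.045 for complex V. With median scaling 10 were called lower, and the medians were -0.10 for all members, -0.10 for complex I, -0.15 for complex II, -0.098 for complex III, -0.099 for complex IV, -0.11 for complex V and -0.091 for the assembly factors, as this scaling lowers every difference by a constant. With trend and robust moderation 12 were called lower. Leaving out each array in turn gave 0 to 5 called higher and 0 to 2 called lower, and medians from -0.073 to -0.016 for all members. The cause of the other changes was not tested. Complex medians without each array ran from -0.051 to -0.014 (I), -0.091 to -0.050 (II), -0.058 to 0.014 (III), -0.050 to 0.0094 (IV) and -0.076 to -0.0082 (V), and from -0.025 to 0.0078 for the assembly factors. With quantile normalization and the deposited ratio table the 12 called members were the same.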
